A study of Mus musculus with 17 samples.

Results

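The genes described here are 34 genes known from the cells that build brain blood vessels, out of 41015 annotated genes for which the files held counts. They were listed by name: 25 are genes of endothelial cells or of the blood-brain barrier, 6 are pericyte genes and 3 are smooth muscle genes. The counts come from mouse brain RNA on a C57BL/6 strain background. There were 6 libraries from animals with a HAR1A transgene, labelled as cases, and 11 from normal controls, so that the design asks how brain RNA differs when this long noncoding RNA is overexpressed. HAR1A is a human gene, and its own level was not analysed here, so the transgene label was not checked against it. The labels do not give the promoter that drives the transgene, the brain region, the age, the sex, or whether each library is from a separate animal, so the p-values measure only the spread between these libraries. All 6 transgene libraries were sequenced on lane 4, together with 3 controls. The remaining controls were on lane 8 (6 libraries), on lane 2 (1) and on lane 6 of a second flow cell (1). Numbers after a group name follow the order of deposition and carry no pairing. The library titles of 8 of the 11 controls (6 of 6 on lane 8, 2 of 3 on lane 4) and of 1 of the 6 transgene libraries carry a letter N that the labels do not explain, and its part in the results was not tested.

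Endothelial cells of brain vessels are sealed to each other by tight junctions, built from claudin, occludin and scaffold proteins, and they carry transporters that let glucose, lipids and thyroid hormone in while efflux pumps return drugs to the blood. This set of properties is the blood-brain barrier, and it is induced and kept by Wnt signals from neural cells and by pericytes. Pericytes sit on capillaries within the basement membrane, whereas contractile smooth muscle cells ring arteries and arterioles. In bulk tissue, fewer vessel cells and less RNA of a gene per cell cannot be told apart.

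Assigned counts ranged from 17067407 to 22642441 per library over the 17 libraries. The deposited tables count reads per transcript, and 41.5% ± 0.92 (SD, n = 17) of reads in a library were ambiguous between rows and went to none of them. Counts of the vascular genes differed with their number of rows. The 13 genes with a single deposited transcript row had a median of 10505 counts over all libraries (2118 to 111301), and the 21 genes with several rows a median of 671 (34 to 53389), 9 of them under 500. Pecam1, which encodes the endothelial adhesion molecule CD31 and is a standard endothelial marker, had 37 counts in all 17 libraries together. Tek, the angiopoietin receptor, had 50, the endothelial transcription factor gene Erg had 41, Abcc9, a subunit of the pericyte potassium channel, had 34, and Pdgfrb, the receptor through which pericytes are recruited, had 148. These low counts cannot be read as low expression, and these 5 genes did not pass the expression filter over all libraries. In the plot of counts by gene, the genes with a single row lie at 2118 counts or more, and the genes with several rows spread over the whole range. Cdh5, Egfl7, Eng, Slc2a1, Abcb1a, Sox17, Abcc9, Anpep and Tagln also overlap another annotated gene, and the strand setting of the counting is not given in the sources used here. For Tagln, the overlapping gene Pcsk7 had 1289 counts and the antisense gene Gm48529 had 491, beside 2118 for Tagln itself. For Eng, the overlapping gene Fpgs had 4404 counts beside 194.

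**Figure D1:**
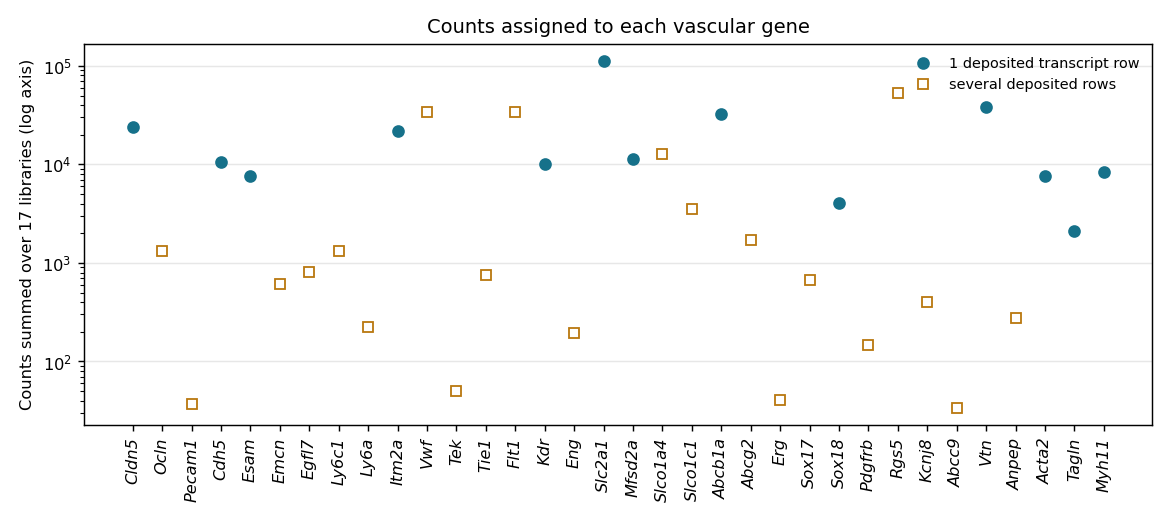
Counts summed over the 17 libraries (y axis, log scale) for each of the 34 vascular genes (x axis, in order of role). Filled circles are genes with 1 deposited transcript row, which range from 2118 to 111301, and open squares are genes with several rows, which range from 34 to 53389.

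Slc2a1 had the highest level per transcript length among the 13 genes with a single row, at 110 ± 21.1 CPM per kilobase in the controls (SD, n = 11), where CPM is the count scaled to the library total. It encodes GLUT1, the glucose transporter of the barrier. Vtn, which encodes vitronectin and is a pericyte gene in brain, followed at 65.3 ± 6.73, and Cldn5, the main claudin of brain endothelium, at 51.1 ± 9.03 CPM per kilobase. Vtn and Cldn5 overlapped over the control libraries, from 53.3 to 72.8 for Vtn and from 37.8 to 61.5 for Cldn5. The smooth muscle genes lay lower than these, with Acta2 at 10.8 ± 1.51, Tagln at 3.82 ± 0.740 and Myh11 at 3.80 ± 0.563 CPM per kilobase. The mean of Acta2 was above those of the endothelial genes Cdh5 (7.99), Sox18 (7.53) and Kdr (5.33). All other values below are CPM scaled with the trimmed mean of M-values (TMM), which compare a gene between libraries and not genes with each other.

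The start regions of 6 of these genes are shown because they carry the main contrasts below. Ocln, Slc2a1, Mfsd2a and Slco1a4 are barrier genes that were lower in the transgene libraries, whereas Cldn5 and Acta2 did not pass the test. Each line gives 250 bases before and 50 bases after the transcription start from RefSeq (GRCm38.p6), 5′ to 3′ on the strand of the gene. Capitals mark matches on either strand to the letters AGGAAG (the core of an ETS site), AACAAT (SOX), CTTTGA (TCF, the factors at the end of the Wnt pathway), GGGCGG (GC box) and TATAAA (found in the TATA box), or to a CArG box, the site of serum response factor in muscle genes, with exactly 1 G or C among its inner A and T letters.
Ocln, chr13:100552669-100552968, minus strand: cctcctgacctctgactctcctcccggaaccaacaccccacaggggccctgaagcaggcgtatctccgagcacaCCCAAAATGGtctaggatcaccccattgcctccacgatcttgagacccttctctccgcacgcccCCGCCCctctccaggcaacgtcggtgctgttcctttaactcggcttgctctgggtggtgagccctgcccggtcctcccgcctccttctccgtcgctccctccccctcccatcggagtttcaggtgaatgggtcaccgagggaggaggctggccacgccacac
Slc2a1, chr4:119108495-119108794, plus strand: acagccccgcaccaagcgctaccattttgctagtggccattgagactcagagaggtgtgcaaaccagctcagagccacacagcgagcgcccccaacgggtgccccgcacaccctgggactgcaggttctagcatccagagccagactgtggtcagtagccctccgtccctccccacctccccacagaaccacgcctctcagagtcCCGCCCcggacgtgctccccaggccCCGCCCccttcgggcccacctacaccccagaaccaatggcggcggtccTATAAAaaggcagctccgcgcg
Mfsd2a, chr4:122961139-122961438, minus strand: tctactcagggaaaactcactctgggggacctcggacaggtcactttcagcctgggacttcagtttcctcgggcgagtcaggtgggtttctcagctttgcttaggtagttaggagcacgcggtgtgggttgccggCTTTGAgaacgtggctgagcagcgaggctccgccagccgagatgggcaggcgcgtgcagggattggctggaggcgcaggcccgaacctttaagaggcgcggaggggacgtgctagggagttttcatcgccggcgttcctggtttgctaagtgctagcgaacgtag
Slco1a4, chr6:141856171-141856470, minus strand: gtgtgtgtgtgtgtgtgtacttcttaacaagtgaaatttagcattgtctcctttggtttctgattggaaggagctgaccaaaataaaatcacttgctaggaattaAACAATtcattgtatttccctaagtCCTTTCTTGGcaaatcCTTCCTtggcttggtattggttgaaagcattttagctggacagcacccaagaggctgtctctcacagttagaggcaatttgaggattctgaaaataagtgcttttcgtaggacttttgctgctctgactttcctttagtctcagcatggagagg
Cldn5, chr16:18776597-18776896, plus strand: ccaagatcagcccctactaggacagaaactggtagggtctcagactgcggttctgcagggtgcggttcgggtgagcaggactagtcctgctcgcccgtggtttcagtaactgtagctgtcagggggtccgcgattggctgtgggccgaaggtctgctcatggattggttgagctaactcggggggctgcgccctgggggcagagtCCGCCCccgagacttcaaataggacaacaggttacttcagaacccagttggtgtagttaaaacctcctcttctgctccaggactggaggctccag
Acta2, chr19:34255324-34255623, minus strand: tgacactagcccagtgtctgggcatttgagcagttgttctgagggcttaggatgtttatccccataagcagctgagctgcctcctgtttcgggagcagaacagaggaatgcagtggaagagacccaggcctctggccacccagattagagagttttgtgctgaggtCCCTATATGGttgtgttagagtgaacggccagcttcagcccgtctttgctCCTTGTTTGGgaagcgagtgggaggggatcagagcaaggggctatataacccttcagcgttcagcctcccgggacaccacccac

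The barrier genes shown did not share a motif set. Slc2a1 holds 2 GC boxes and the letters TATAAA, which here begin 28 bases after the start and not before it, Ocln and Cldn5 hold 1 GC box each, Mfsd2a holds a TCF core, and Slco1a4, whose start region is poor in G and C (40.7%), holds an ETS core and a SOX core. Acta2 holds 2 CArG boxes with 1 G or C inside, and Ocln and Slco1a4 hold 1 each; this pattern was added after the Acta2 sequence was seen. No match shown overlaps another. A start region within 1000 bases of the GENCODE start was found for 21 of the 34 genes. Among these 21, 8 held AGGAAG, 3 AACAAT, 2 CTTTGA, 8 GGGCGG, 6 TATAAA and 6 the CArG box with 1 G or C inside. Over all 32851 RefSeq start regions, the shares that hold them were 35.4%, 10.7%, 16%, 35.7%, 13.6% and 8.5%. A perfect CArG box was in 1.63% of all start regions and in 0 of the 21. These matches are letters in a window and do not show binding.

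Over all libraries, 10 vascular genes were lower in the transgene libraries, 1 was higher and 18 did not pass the test, out of 29 that passed the expression filter (edgeR's quasi-likelihood F test, Benjamini-Hochberg adjusted p below 0.05 over 19136 tested features). The background was high: 47.4% of all tested features passed, 24.4% lower and 23% higher. The lower genes included the tight junction gene Ocln, 4 of the 6 barrier transporters and the pericyte genes Rgs5 and Kcnj8. No smooth muscle gene passed. The median log2 fold change was −0.20 over the 29 vascular genes and −0.05 over all tested features, and 24 of the 29 were below 0 against 54% of all features. Ocln was the only vascular gene with all transgene libraries below all controls, a pattern that 5.4% of all features showed, and none lay wholly above them, as 9.46% of all features did. The plot of fold changes shows the transporters and junction genes mostly left of the median of all features. The smooth muscle genes lie around it over all libraries and left of it within lane 4 (median log2 −0.20 beside −0.04).

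**Figure D2:**
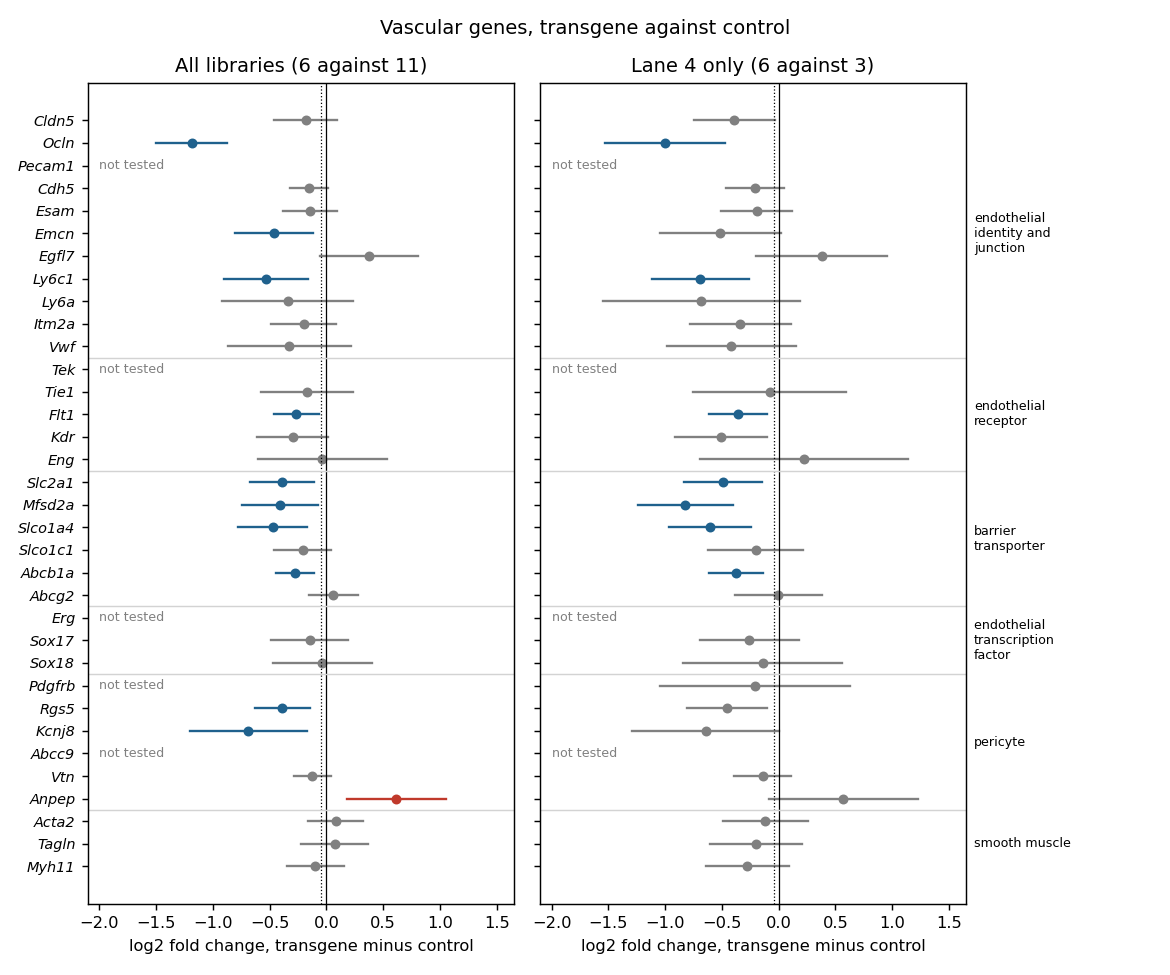
Log2 fold change (x axis, transgene minus control) with its 95% confidence interval for each vascular gene (y axis, grouped by role), over all 17 libraries on the left and within lane 4 on the right. Blue marks genes lower and red genes higher at an adjusted p below 0.05, grey marks genes that did not pass, and the dotted line is the median of all tested features (−0.05 and −0.04).

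Within lane 4, where 6 transgene libraries meet 3 controls, 7 vascular genes were lower and 0 higher out of 30 tested. In that comparison 25.6% of 19261 features passed, 12% lower and 13.6% higher. The 7 were Ocln, Ly6c1, Flt1, Slc2a1, Mfsd2a, Slco1a4 and Abcb1a, all of which were also among the 10 over all libraries. Both comparisons use the same 6 transgene libraries and share 3 controls. The groups did not overlap for 6 genes (Ocln, Emcn, Flt1, Mfsd2a, Slco1a4 and Abcb1a), beside 10.6% of all features that were lower and 14.7% that were higher without overlap. The median was −0.31 over the 30 genes and −0.04 over all features, and 27 of the 30 were below 0 against 53.4%. The lane 4 counts rest heavily on 1 control library. Without control 7, 2 genes passed as lower, Ocln and Mfsd2a, and without transgene 1 or transgene 2, 4 passed. Control 7 had the lowest summed level of cerebellar granule cell genes among the controls (114 CPM). It had the highest of oligodendrocyte genes (6039 CPM) and of general neuron genes (8409 CPM). Summed hindbrain and cord Hox genes ran from 15.9 to 305 CPM over the 3 lane 4 controls. The part of these differences in the lane 4 values was not tested.

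Controls on lane 8 (n = 6) were also compared with controls on lane 4 (n = 3), with no transgene in either group. No feature passed with edgeR (0 of 19384), none with limma-voom and 1 with DESeq2, while 1543 features had an unadjusted p below 0.05 with edgeR. Among the 30 vascular genes tested, Mfsd2a alone had an unadjusted p below 0.05 (log2 −0.58 ± 0.17, SE; adjusted p = 0.581), and 23 had a log2 fold change below 0 beside 49.3% of all features. Their median was −0.10.

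Ocln encodes occludin, a membrane protein of tight junctions. Its level ran from 3.11 to 5.69 CPM in the controls (median 4.96) and from 1.36 to 2.60 CPM in the transgene libraries (median 2.11). The lowest controls were control 7 and then control 11 (3.11 and 4.07 CPM), and control 7 was still above the highest transgene library. Summed cerebellar granule cell genes were at 114 CPM in control 7, 898 in control 11 and 2522 in control 8. The part of this difference in the Ocln values was not tested. The log2 fold change was −1.19 ± 0.15 (SE; adjusted p = 4.38e-06), a fold of 0.439 with a 95% interval of 0.353 to 0.545. Within lane 4 the controls were at 3.11, 5.30 and 4.07 CPM, and the log2 fold change was −1.0 ± 0.24 (adjusted p = 0.0112). Without control 8 the lane 4 value missed the threshold (adjusted p = 0.0516). These values rest on 67 to 125 Ocln counts per control library and 28 to 49 per transgene library. A pair of transcript rows held nearly all assigned Ocln counts, and reads ambiguous between rows went to none. The longer row took 64.7% ± 6.29 of Ocln counts in controls and 63.4% ± 10.5 with the transgene.

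**Figure D3:**
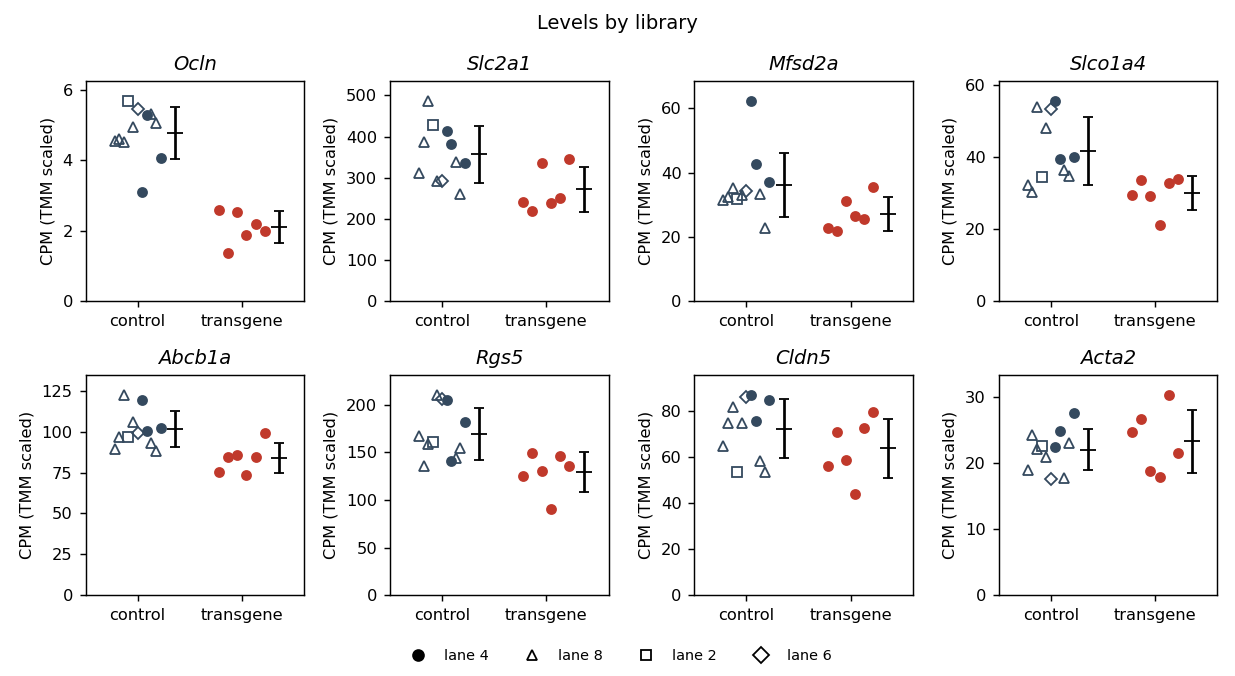
Levels in every library (y axis, TMM-scaled CPM) of 6 genes that were lower over all libraries and of Cldn5 and Acta2, which did not pass. Each marker is a library, filled for lane 4 and open for other lanes, and the bars are the mean ± SD of a group (11 controls, 6 transgene); the transgene libraries lie below all controls for Ocln and overlap them in the other panels.

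The other junction and identity genes were lower by less or did not pass. Cldn5 ran from 53.5 to 87.0 CPM in the controls (median 75) and from 44.1 to 79.4 CPM in the transgene libraries (median 65.0), and the groups overlapped widely. Its log2 fold change was −0.18 ± 0.13 (adjusted p = 0.270), with a fold between 0.726 and 1.07. Within lane 4 the controls were at 87.0, 75.9 and 84.8 CPM, 1 of the 6 transgene libraries reached into their range, and the log2 fold change was −0.39 ± 0.16 (edgeR p = 0.0352, adjusted p = 0.103; fold 0.595 to 0.978). With library size scaling Cldn5 passed in both comparisons (adjusted p = 0.0491 over all libraries and 0.0396 within lane 4). Cdh5, the cadherin of endothelial adherens junctions, gave −0.15 ± 0.08 (adjusted p = 0.126), and Esam, an adhesion molecule of endothelial tight junctions, gave −0.14 ± 0.11 (adjusted p = 0.312). Over all libraries the intervals of all 3 include no change as well as a lower level (fold 0.801 to 1.01 for Cdh5 and 0.769 to 1.07 for Esam).

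Ly6c1 and Emcn were lower. Ly6c1, a surface protein of capillary endothelium in mouse brain, ran from 2.56 to 5.93 CPM in the controls (median 4.41) and from 2.54 to 3.85 CPM in the transgene libraries (median 2.87). The controls were more spread, and 5 of the 6 transgene libraries lay within their range; transgene 4, at 2.54 CPM, was just below the lowest control. The log2 fold change was −0.54 ± 0.18 (adjusted p = 0.0177), and within lane 4 it was −0.69 ± 0.19 (adjusted p = 0.0243). The lane 4 call was lost without control 7, without control 8 or without the expression filter. Ly6c1 lies beside close relatives, and its reads were spread over 5 rows; with the most counted row in place of their sum it did not pass (adjusted p = 0.142). Its relative Ly6c2 was at 0.619 ± 0.853 CPM in the controls and 1.11 ± 1.12 CPM in the transgene libraries and did not pass (adjusted p = 0.349).

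Emcn, the sialomucin endomucin of capillaries and veins, ran from 1.28 to 2.45 CPM in the controls (median 2.04) and from 1.02 to 1.86 CPM in the transgene libraries (median 1.33). Its log2 fold change was −0.46 ± 0.16 (adjusted p = 0.0259), and within lane 4 it was −0.51 ± 0.24 (adjusted p = 0.15). It rests on 22 to 49 counts per library, and it did not pass with lane and flow cell in the model or without transgene 2, 3, 4 or 6. Emcn also did not pass without the expression filter or without control 7 and transgene 3 together.

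The remaining identity genes did not pass. Vwf, the clotting factor stored in endothelial cells, varied widely between libraries, from 57.3 to 224 CPM in the controls (median 111) and from 41.2 to 125 CPM in the transgene libraries (median 87.7). Control 3 alone set its upper end, and the log2 fold change was −0.33 ± 0.26 (adjusted p = 0.313). Itm2a, a membrane protein enriched in brain endothelium, gave −0.20 ± 0.14 (adjusted p = 0.244) and Ly6a −0.34 ± 0.28 (adjusted p = 0.324). Egfl7, a secreted endothelial protein, was the exception in sign, at +0.38 ± 0.20 (adjusted p = 0.142), from 1.23 to 3.37 CPM in the controls and from 2.18 to 3.36 CPM in the transgene libraries.

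Among the receptors, Flt1 was lower and Kdr did not pass. Flt1 encodes VEGF receptor 1, which binds VEGF-A tightly and signals weakly, and Kdr encodes VEGF receptor 2, the main signalling receptor. Flt1 ran from 82.8 to 134 CPM in the controls (median 104) and from 69.5 to 104 CPM in the transgene libraries (median 88.8), with much overlap. Its log2 fold change was −0.26 ± 0.10 (adjusted p = 0.0297) over all libraries and −0.35 ± 0.12 (adjusted p = 0.0448) within lane 4. Kdr ran from 21.4 to 39.3 CPM in the controls (median 32.7) and from 17.4 to 34.1 CPM in the transgene libraries (median 25.1), with a log2 fold change of −0.30 ± 0.15 (adjusted p = 0.110). The Kdr controls within lane 4 were at 37.3, 32.7 and 38.2 CPM, and the log2 fold change was −0.51 ± 0.18 (edgeR p = 0.0195, adjusted p = 0.0676; fold 0.531 to 0.934). There it passed with library size scaling (adjusted p = 0.0326) and without transgene 6 (adjusted p = 0.0271). The Kdr estimate was not smaller than that of Flt1 in either comparison and had a wider error, and a difference between the receptors was not tested. Over all libraries Flt1 did not pass without control 7, without transgene 1, 2, 3 or 4, or with lane and flow cell in the model. Nor did it pass there without the expression filter, with the most counted row alone, or without control 7 and transgene 3 together. Its lane 4 call was lost in 6 of the 9 fits that left out 1 library. That call was also lost with relative log expression scaling, without the filter and with the most counted row.

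Flt1 makes a membrane receptor and a shorter soluble form that traps VEGF, and each form has a deposited row. Reads ambiguous between the rows went to neither. The shares below are therefore of assigned counts only and do not give the ratio of the forms. The row with 1333 codons, the membrane form, took 66.7% ± 2.78 of Flt1 counts in controls and 68.7% ± 1.94 with the transgene. The row with 688 codons, the short form, took 33.3% ± 2.78 and 31.3% ± 1.94. The use of the rows did not differ by edgeR's test of row use within a gene (adjusted p = 0.583 over all libraries and 0.813 within lane 4). By that test 24.3% of 3494 genes with several testable rows differed over all libraries and 10.2% of 3496 within lane 4. No vascular gene was among them, with Abcg2, Flt1, Ly6c1, Ocln and Sox17 testable over all libraries and Egfl7 in addition within lane 4. Before adjustment, Ly6c1 within lane 4 was the only one below 0.05 (edgeR p = 0.0272, adjusted p = 0.158).

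Tie1, an orphan receptor that works with the angiopoietin receptor, was at 2.31 ± 0.438 CPM in the controls and 2.05 ± 0.814 CPM in the transgene libraries (log2 −0.17 ± 0.19, adjusted p = 0.485). Eng, the TGF-beta co-receptor endoglin, was at 0.581 ± 0.213 and 0.565 ± 0.203 CPM (log2 −0.04 ± 0.27, adjusted p = 0.926), on 6 to 18 counts per library. Its fold could lie anywhere from 0.657 to 1.45.

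Of the 6 transporters, 4 were lower over all libraries, beside 24.4% of all features. Slc2a1 ran from 261 to 486 CPM in the controls (median 337) and from 219 to 346 CPM in the transgene libraries (median 247). Transgene 3 and transgene 6 lay within the control range, and 4 of the 6 lay below the lowest control. The log2 fold change was −0.39 ± 0.13 (adjusted p = 0.0213), a fold of 0.763 (0.629 to 0.925). Within lane 4 the controls were at 415, 381 and 336 CPM, and the log2 fold change was −0.49 ± 0.16 (adjusted p = 0.0418). It did not pass over all libraries without transgene 1, 2 or 4, or with lane and flow cell in the model (adjusted p = 0.0594). The lane 4 call was lost in 7 of the 9 fits that left out 1 library. It was also lost with relative log expression scaling and without the expression filter.

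Mfsd2a encodes the transporter that carries the omega-3 fatty acid DHA, bound to lysophosphatidylcholine, across the barrier and keeps vesicle transport through the endothelium low. It ran from 22.9 to 62.2 CPM in the controls (median 33.3) and from 21.7 to 35.5 CPM in the transgene libraries (median 26.0). The 3 lane 4 controls, at 62.2, 42.8 and 37.1 CPM, were the highest controls, and the lane 8 controls averaged 31.4 ± 4.33 CPM. The log2 fold change was therefore −0.82 ± 0.19 (adjusted p = 0.0097) within lane 4 and −0.41 ± 0.16 (adjusted p = 0.0427) over all libraries. The all-library call was lost in 8 of the 17 fits that left out 1 library, controls 7, 8 and 11 among them. It was also lost in 4 of the 9 other settings. These were relative log expression scaling, no expression filter, the most counted row of each gene, and leaving out rows that match no annotated gene.

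Slco1a4 encodes an organic anion transporter of brain endothelium. It ran from 30.2 to 55.6 CPM in the controls (median 39.6) and from 21.1 to 33.9 CPM in the transgene libraries (median 31.2). Its log2 fold change was −0.47 ± 0.14 (adjusted p = 0.011), a fold of 0.720 (0.584 to 0.887). Within lane 4 the controls, at 55.6, 39.6 and 40.2 CPM, were all above the transgene libraries (log2 −0.61 ± 0.16, adjusted p = 0.0204). Without control 7 the lane 4 value did not pass (adjusted p = 0.098). The near relatives Slco1a5 and Slco1a6 were below 0.1 CPM on average in both groups and were not tested.

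Abcb1a encodes P-glycoprotein, the main drug efflux pump of the barrier in mouse. It ran from 88.5 to 123 CPM in the controls (median 99.6) and from 73.5 to 99.3 CPM in the transgene libraries (median 84.7). The groups overlapped through transgene 6 alone, and the log2 fold change was −0.27 ± 0.08 (adjusted p = 0.00805), a fold of 0.826 (0.736 to 0.928). Within lane 4 the controls were at 119, 101 and 103 CPM (log2 −0.38 ± 0.11, adjusted p = 0.0266). Abcb1a did not pass there without control 7 (adjusted p = 0.103), nor without transgene 1 or 2 or without the expression filter. Its near-identical relative Abcb1b was higher over all libraries, at 6.55 ± 1.17 CPM in the transgene libraries and 4.77 ± 1.32 CPM in the controls (log2 +0.46 ± 0.16, adjusted p = 0.0245), and did not pass within lane 4 (log2 +0.10, adjusted p = 0.788).

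Slco1c1, a thyroid hormone transporter, and Abcg2, another drug efflux pump, did not pass. Slco1c1 ran from 8.24 to 13.1 CPM in the controls (median 10.7) and from 6.85 to 11.3 CPM in the transgene libraries (median 9.31), a log2 fold change of −0.21 ± 0.12 (adjusted p = 0.166). Abcg2 ran from 4.17 to 5.94 CPM (median 4.88) and from 4.58 to 6.64 CPM (median 4.92), a log2 fold change of +0.06 ± 0.10 (adjusted p = 0.672). Its fold interval was 0.896 to 1.21, which overlaps the interval of Slc2a1 and lies just above that of Slco1a4. The difference between the genes was not tested.

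The endothelial transcription factor genes did not pass. Sox17, which acts in arterial endothelium and in barrier formation, was at 2.03 ± 0.435 CPM in the controls and 1.83 ± 0.253 CPM in the transgene libraries (log2 −0.15 ± 0.16, adjusted p = 0.476). Sox18 was at 12.2 ± 2.57 and 11.9 ± 5.90 CPM (log2 −0.04 ± 0.21, adjusted p = 0.903). Its spread in the transgene group came from transgene 6, at 23.4 CPM, beside a group median of 10.2.

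The pericyte genes split in 3 ways over all libraries, while within lane 4 0 of the 5 tested passed. Rgs5, a regulator of G-protein signalling and a standard pericyte marker, ran from 136 to 211 CPM in the controls (median 161) and from 90.2 to 149 CPM in the transgene libraries (median 133). The lowest value belonged to transgene 4, and 3 controls lay inside the upper part of the transgene range. The log2 fold change was −0.39 ± 0.12 (adjusted p = 0.00974), a fold of 0.764 (0.646 to 0.904). Within lane 4, with controls at 205, 141 and 182 CPM, it was −0.46 ± 0.16 and did not pass (adjusted p = 0.0587).

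Kcnj8, the pore subunit of the pericyte potassium channel, ran from 0.66 to 2.04 CPM in the controls (median 1.46) and from 0.59 to 0.93 CPM in the transgene libraries (median 0.87). It had 10 to 43 counts per library, and its log2 fold change was −0.69 ± 0.25 (adjusted p = 0.0266). The call was lost without transgene 1 or 6, with lane and flow cell in the model, with limma-voom and without the expression filter. Anpep, aminopeptidase N, was the 1 vascular gene that was higher, from 0.39 to 1.09 CPM in the controls (median 0.65) and from 0.74 to 1.36 CPM in the transgene libraries (median 1.09). Its log2 fold change was +0.62 ± 0.21 (adjusted p = 0.0213) on 9 to 28 counts per library. It did not pass without transgene 2 (adjusted p = 0.0539), with lane and flow cell in the model, or with library size scaling. Vtn ran from 92.9 to 127 CPM in the controls (median 114) and from 93.5 to 121 CPM in the transgene libraries (median 98.3), with a log2 fold change of −0.12 ± 0.08 (adjusted p = 0.211). The interval of Vtn (fold 0.818 to 1.03) overlaps that of Rgs5, which also marks pericytes. The difference between the genes was not tested. Within lane 4, Kcnj8 (log2 −0.64), Anpep (+0.57), Vtn (−0.14) and Pdgfrb (−0.21) did not pass.

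The smooth muscle genes gave log2 fold changes near 0 over all libraries. Acta2, smooth muscle actin, ran from 17.6 to 27.6 CPM in the controls (median 22.4) and from 17.8 to 30.3 CPM in the transgene libraries (median 23.1). Its log2 fold change was +0.08 ± 0.12 (adjusted p = 0.602), with a fold of 0.892 to 1.25. Tagln, transgelin, gave +0.07 ± 0.14 (adjusted p = 0.700) and Myh11, smooth muscle myosin heavy chain, −0.10 ± 0.12 (adjusted p = 0.522). Within lane 4 the same genes gave −0.12 ± 0.17, −0.20 ± 0.18 and −0.28 ± 0.17, none of which passed (adjusted p from 0.258 to 0.662).

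The mean log2 CPM of each role was taken per library as a description with no test. It included the genes with too few counts to be tested over all libraries. These were Pecam1 among the junction and identity genes, and Pdgfrb and Abcc9 among the pericyte genes. Against all 11 controls the mean was lower in the transgene libraries for all roles given here but smooth muscle. For the junction and identity genes the mean was 2.93 ± 0.16 in the controls (SD, n = 11) and 2.63 ± 0.09 in the transgene libraries (n = 6). For the transporters it was 5.23 ± 0.17 and 4.95 ± 0.15. The pericyte genes were at 1.85 ± 0.20 and 1.67 ± 0.16, and the smooth muscle genes at 3.90 ± 0.20 and 3.91 ± 0.27. All 25 endothelial and barrier genes together summed to 800 to 1351 CPM in the controls (median 1018) and 689 to 1023 CPM in the transgene libraries (median 815). The groups overlapped on each of these 5 measures. Against the 3 lane 4 controls alone, the smooth muscle mean was lower with the transgene too. Those controls averaged 4.11 ± 0.17 for smooth muscle and 1.85 ± 0.30 for the pericyte genes. The mural genes minus the endothelial genes, on the mean log2 CPM scale, lay at −0.52 ± 0.19 in controls and −0.38 ± 0.14 in the transgene libraries, which is within 1 SD of the controls. Transgene 4 was the lowest transgene library for the summed CPM of the receptors, the pericyte genes and the smooth muscle genes, and transgene 6 was the highest for the transporters.

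**Figure D4:**
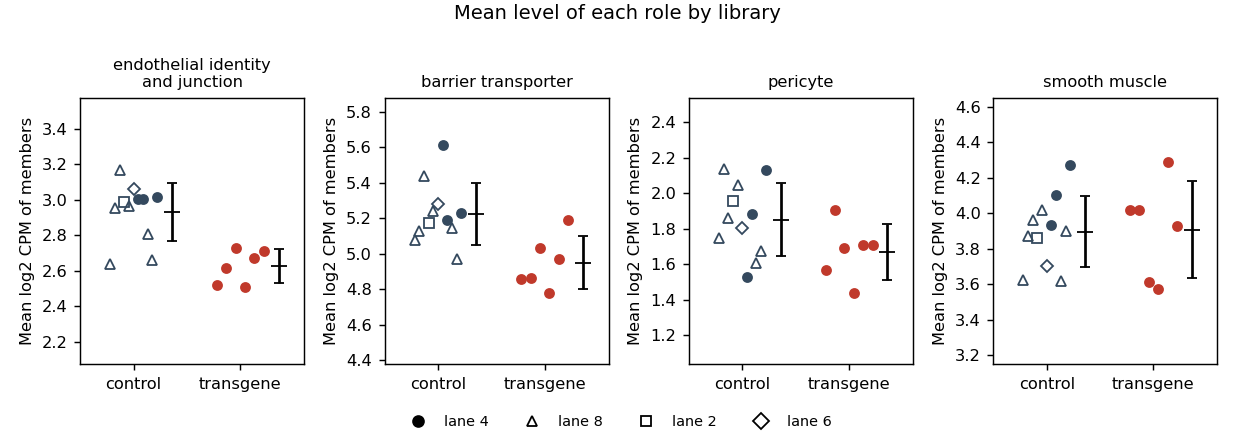
Mean log2 CPM of all listed genes of 4 roles in each library, untested genes included (y axis, each panel spanning the same 1.5 log2 units). Markers are libraries, filled for lane 4, and bars are the mean ± SD of the 11 controls and 6 transgene libraries. Junction and transporter genes average lower in the transgene libraries (2.63 against 2.93, and 4.95 against 5.23). Smooth muscle genes do not against all controls (3.91 against 3.90), but do against the 3 lane 4 controls (4.11).

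Further genes of the same cells and pathways moved in both directions over all libraries. Of 19 other endothelial genes tested, 7 were lower and 1 higher. Adgrl4, an adhesion GPCR of endothelium, was lower (42.5 ± 8.62 to 31.3 ± 4.40 CPM; log2 −0.44 ± 0.13, adjusted p = 0.00925), as was the endothelial lectin gene Clec14a (log2 −0.42 ± 0.14, adjusted p = 0.0172). Ptprb, the endothelial phosphatase VE-PTP, did not pass (log2 −0.22 ± 0.11, adjusted p = 0.0885). Cd34, a sialomucin of endothelial and progenitor cells, was higher, from 3.17 ± 1.83 CPM in the controls to 9.62 ± 2.11 CPM in the transgene libraries (log2 +1.61 ± 0.26, adjusted p = 6.35e-05). Of 15 other barrier transporters and junction genes tested, 6 were lower and 1 higher. Slc16a1, the lactate transporter MCT1, was lower (log2 −0.53 ± 0.15, adjusted p = 0.00773). Slc7a5 and Slc3a2, the chains of the large neutral amino acid transporter, did not pass (log2 −0.15 ± 0.15 and −0.11 ± 0.08), nor did Slc38a5 (log2 −0.64 ± 0.30, adjusted p = 0.0838). Jam2, which encodes a junctional adhesion molecule and was chosen after its values were seen, was lower without overlap, from 88.6 ± 11.4 to 60.4 ± 10.7 CPM (log2 −0.55 ± 0.11, adjusted p = 0.000328).

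Of 17 genes of VEGF, angiopoietin, PDGF and TGF-beta signalling tested, 3 were higher and 3 lower. The ligands Vegfa, Vegfb and Vegfc did not pass (log2 −0.21 ± 0.27, −0.21 ± 0.13 and −0.25 ± 0.18). Angpt1, the agonist of the Tek receptor made by pericytes, was lower (17.5 ± 3.68 to 11.8 ± 2.08 CPM; log2 −0.57 ± 0.14, adjusted p = 0.00268). Of 19 genes of Wnt and Notch signalling tested, 2 were higher and 4 lower. The Wnt ligands of brain vessels moved apart: Wnt7a was lower (85.9 ± 26.6 to 31.5 ± 3.12 CPM; log2 −1.45 ± 0.21, adjusted p = 2.32e-05) and Wnt7b higher (6.03 ± 1.58 to 12.9 ± 3.92 CPM; log2 +1.10 ± 0.19, adjusted p = 9.03e-05). Both are made by neural cells and act on endothelium. For Wnt7a, control 7 (637 raw counts) lay within the transgene range (541 to 736), and control 11 was the next lowest control (1116). Fzd4, a Wnt and Norrin receptor of vessels, was lower without overlap (46.5 ± 6.90 to 32.6 ± 4.52 CPM; log2 −0.51 ± 0.11, adjusted p = 0.000605), and Ndp, which encodes Norrin, did not pass (log2 −0.22 ± 0.13). Of 15 arterial and venous genes tested, 3 were higher and 1 lower. Efnb2, an arterial ephrin that neurons also express, was higher (65.6 ± 14.9 to 155 ± 30.5 CPM; log2 +1.24 ± 0.14, adjusted p = 1.78e-06), while Bmx, Gkn3 and Sema3g did not pass (log2 +0.27 ± 0.23, +0.11 ± 0.39 and −0.25 ± 0.12).

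Of 9 other pericyte genes tested, 1 was higher and 2 lower; Ndufa4l2 was lower (log2 −0.37 ± 0.15, adjusted p = 0.047), and Higd1b, Atp13a5 and Cox4i2 did not pass (log2 −0.16 ± 0.17, −0.11 ± 0.19 and −0.44 ± 0.28). Of 8 other smooth muscle genes tested, 2 were higher and 2 lower; Tpm2 was lower (log2 −0.54 ± 0.17, adjusted p = 0.0135), and Cnn1, Myl9 and Lmod1 did not pass (log2 +0.46 ± 0.30, −0.09 ± 0.11 and +0.10 ± 0.12). Of 10 basement membrane genes tested, 3 were higher and 3 lower. The collagen IV genes Col4a1 (34.4 ± 6.10 to 54.8 ± 7.06 CPM; log2 +0.67 ± 0.11, adjusted p = 7.51e-05) and Col4a2 (log2 +0.81 ± 0.14, adjusted p = 8.65e-05) and the laminin gene Lama4 (log2 +0.49 ± 0.13, adjusted p = 0.00381) were higher, and Lama5 did not pass (log2 +0.01 ± 0.10). The basement membrane genes Sparc and Nid1, chosen after their values were seen, were lower in raw counts without overlap. Sparc had 240 to 535 counts in the controls and 72 to 169 in the transgene libraries. Nid1 had 440 to 664 and 279 to 407. The shares of these further lists stand beside the 24.4% of all features that were lower and 23% that were higher.

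Within lane 4 fewer of these further genes passed. Lower calls came to 3 of 19 other endothelial genes, 3 of 15 other barrier genes, 4 of 17 signalling genes of the VEGF to TGF-beta list, 3 of 19 Wnt and Notch genes and 1 of 15 arterial and venous genes. Higher calls in these 5 lists came to 1, 0, 1, 1 and 2 in the same order. Of the other pericyte genes 2 of 9 were lower, of the other smooth muscle genes 1 of 9 was higher, and of the basement membrane genes 3 of 10 were lower and 1 higher. The shares over all features in that comparison were 12% lower and 13.6% higher.

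Genes of brain regions and other cell types differed between the same libraries. All 12 Hox genes of hindbrain and spinal cord were lower: they summed to 15.9 to 305 CPM in the controls and 0.0463 to 0.633 CPM in the transgene libraries, where Hoxa2, Hoxb2, Hoxd3 and Hoxd4 had 0 counts. All 8 cerebellar granule cell genes were lower (summed 114 to 2643 CPM in the controls, 77.7 to 484 CPM in the transgene libraries), and all 9 genes of striatal projection neurons were higher (422 to 672 and 1096 to 3075 CPM). Of 8 astrocyte genes, 5 were lower and 1 higher (4201 to 5258 and 4802 to 5749 CPM). Of 8 oligodendrocyte genes, 6 were lower and 1 higher (1493 to 6039 and 1254 to 2742 CPM). Red cell genes, which report blood left in the tissue, were lower for 3 of 6 (471 to 5208 and 394 to 1136 CPM). Of the tested microglia genes, 4 of 5 were higher over all libraries, with a median log2 fold change of +0.64 (summed over 8, 200.4 to 399 and 284 to 376 CPM). Within lane 4, 1 of 6 was higher and the median was +0.10; the 3 controls there summed to 267 to 399 CPM and spanned the transgene range. The controls of lane 8 lay at 200.4 to 259 CPM, and between the control lanes (lane 8 against lane 4) the microglia median was −0.44 with 0 of 5 called by edgeR. Against the lane 4 controls, all 11 tested Hox genes and 5 of 8 granule cell genes were lower and 8 of 9 striatal genes were higher. In that comparison 5 astrocyte genes were lower and 1 higher, 6 oligodendrocyte genes were lower, and 4 of 6 red cell genes were lower.

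Cells that border vessels were counted in the same way. Among 12 genes of meningeal and perivascular fibroblasts, 1 was higher and 2 lower (153 to 270 and 160 to 276 CPM). Among 8 tested choroid plexus genes, 1 was lower (summed over 10, 75.4 to 4097 and 25.4 to 1893 CPM), and none of 4 tested perivascular macrophage genes passed with edgeR (0 with an unadjusted p below 0.05; the lowest was 0.318, for Mrc1). Among 8 general neuron genes, 2 were higher and 2 lower (4997 to 8409 and 4768 to 6338 CPM). The part of these regional and cell type differences in the vascular values was not tested.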

How the data were processed

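RNA-seq libraries were made from total RNA of brain, per the labels. The authors deposited raw counts per transcript row, 68517 rows for each of 17 libraries, with reads placed on mm10 per the submitters' processing notes. No aligner, counter, strand setting or annotation is named there. The 5 closing rows, which name no transcript, were dropped. Rows were matched to GENCODE M21 (64380 rows), summed to 41015 genes, and kept as features of their own where unmatched or named XLOC (45147 features). Library pairs of a group differed beyond counting noise (chi-square per feature at least 9.97).

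Groups were compared with edgeR 4.0.16 in R 4.3.3 (TMM, default expression filter, quasi-likelihood F test, Benjamini-Hochberg over all tested features, threshold 0.05) on all libraries, within lane 4, and between control lanes. CPM are TMM-scaled; log2 CPM has a prior count of 2. Alternatives were other scalings, no filter, DESeq2 1.42.0, limma 3.58.1 (voom), the most counted row, no XLOC rows, lane and flow cell as a factor, and leaving out libraries. The test of row use within genes was added after the data were seen. The procedure was tested on simulated counts with the same spread setting for every gene and no region or lane differences. Those settings differ from these data, so that test does not show how the procedure behaves on them. The vascular genes and all lists were chosen with earlier results of these data known. Named genes are all 34, the first 4 tested genes of each further list, relatives and overlapping genes, and any others are marked.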

Additional observations from a re-analysis of the deposited data

Results flagged for a closer look

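Within groups of 6 libraries, 5 values lay apart from the rest, among 50 combinations of a gene and a group examined; chance gives about 1 in 20. The measure is the gap of the extreme library to its neighbour as a share of the group's range of log2 CPM, and the limit for 6 libraries is 0.625. In the transgene group, transgene 4 was lowest for Slco1a4 (21.1 CPM beside 29.2 for the next library, share 0.688) and for Rgs5 (90.2 beside 126 CPM, share 0.657). Transgene 3 was highest for Ly6c1 (3.85 beside 2.97 CPM, share 0.628) and for Abcg2 (6.64 beside 5.06 CPM, share 0.731). Among the lane 8 controls, control 10 was lowest for Mfsd2a (22.9 beside 31.6 CPM, share 0.754). Slco1a4 and Rgs5 kept their calls over all libraries without transgene 4.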

How the results depend on the processing

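No call changed direction. Over all libraries, 10 lower and 1 higher became 16 and 0 with library size scaling, 6 lower without the expression filter, and 6 and 0 with a factor for lane and flow cell (5887 features passed there). Leaving out 1 library gave 6 to 10 lower and 0 to 1 higher, with 6 lower without transgene 1, 2 or 4 and 0 higher without transgene 2. Library size scaling moved the median of all features from −0.05 to −0.16, the vascular median to −0.32, and the share of calls that were higher from 48.6% to 35.6%. With it Cldn5, Cdh5, Esam, Kdr, Slco1c1 and Vtn also passed. Ocln, Slco1a4, Abcb1a and Rgs5 were lower in every alternative run over all libraries. Without control 7 and transgene 3 together, 8 were lower and 1 higher. Within lane 4, 7 lower became 3 without the filter and 2 to 8 when leaving out 1 library. Between control lanes, DESeq2 passed 1 feature, and leaving out 1 library gave 0 to 88, the 88 without control 8; none was a vascular gene. No paired analysis was possible because the labels give no replicate numbers that link libraries. Genes with few counts (Kcnj8, Anpep, Eng, Ly6a) and the 5 untested genes are limited by depth.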
